A study of Mus musculus with 4 samples.

Results

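The genes described here encode the extracellular matrix of the heart and the proteins that remodel it. They are a list of 43 genes, matched by gene symbol to the probe sets of the array, out of 8251 named genes in all. Of the 43, 39 had a probe set that carried the symbol alone, and 32 had one bright enough to be tested. Fbn1, Spp1, Thbs1 and Timp4 had no such probe set and are not analysed here. Whole hearts of heterozygous mice were compared with whole hearts of wild-type mice, with 2 pools per genotype and RNA of 5 hearts in every pool. All animals were adult males of a mixed 129/Black Swiss background, 8 to 16 weeks old. The labels number the pools but do not say that they were drawn from separate animals, so p-values measure only the spread between these 4 samples. Values are linear signal intensities of 1 oligonucleotide array per pool, and changes are log2 of heterozygous over wild type.

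The cardiac matrix is laid down mainly by fibroblasts, with endothelial and smooth muscle cells adding the sheets that surround vessels. Fibrillar collagens carry tensile load between the muscle bundles, while collagen IV, laminins and nidogen form the basement membrane around every myocyte and capillary. Matricellular proteins, metalloproteinases, their tissue inhibitors (TIMPs), cross-linking enzymes and transforming growth factor beta set how much matrix is deposited and how fast it is broken down. In this tissue, fibrosis is the best known disturbance of that balance.

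Matrix genes were mostly higher in the heterozygous pools. Of the 32 tested genes, 20 (62.5%) rose, 0 fell and 12 did not pass, by limma with Benjamini-Hochberg adjustment over all tested probe sets and a threshold of 0.05. Across all 5692 tested genes 19.5% rose and 19.5% fell. The median log2 change of the 32 was 0.69, or 1.62-fold, against 0.02 for all tested genes. At least 2-fold increases were called for 9 of the 32, where 5.53% of all tested genes had one. Signals of the heterozygous pools lay above those of the wild-type pools without overlap for 25 of the 32 (36.2% of all tested genes), below them for 2 (34.5%), and overlapped for 5. With 2 pools per genotype, the smallest two-sided p of an exact permutation test is 0.333, so single genes were judged with limma, which pools the spread across probe sets. It called 38.3% of all tested probe sets.

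**Figure D1:**
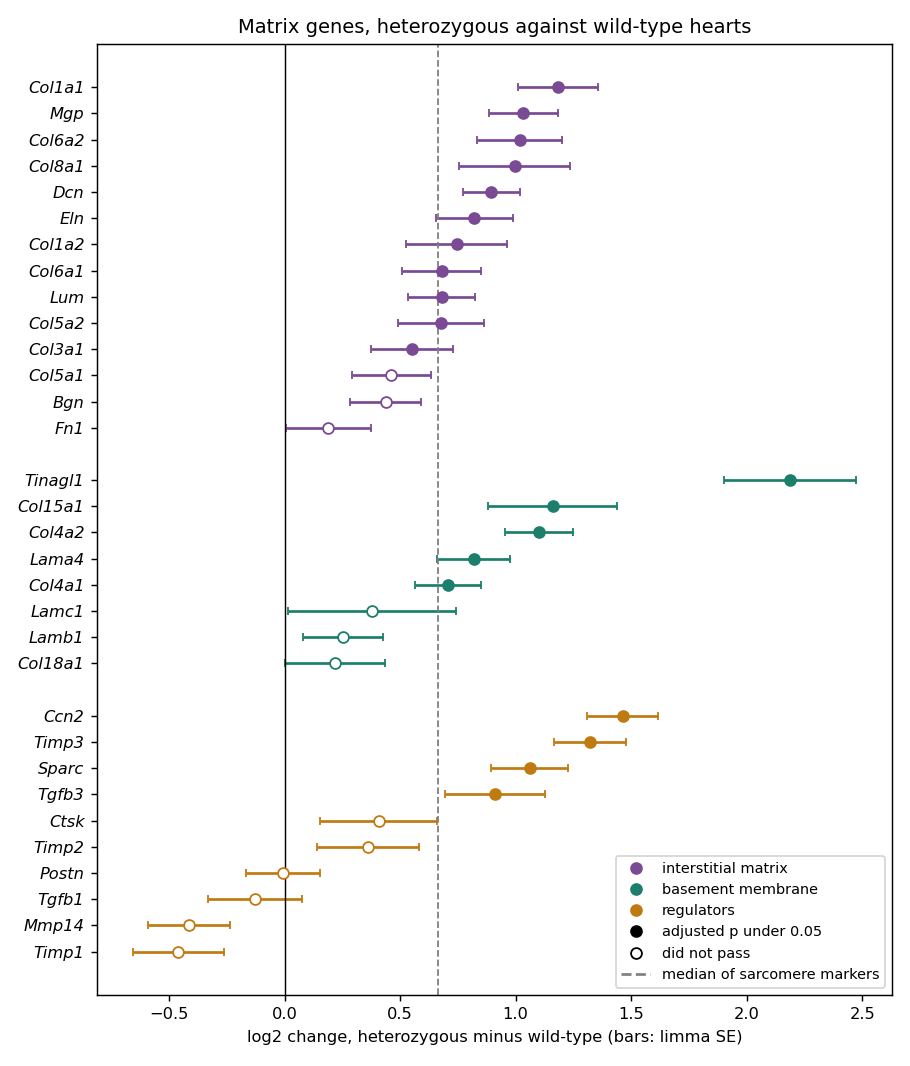
Log2 change (heterozygous minus wild type, x axis) of the 32 tested matrix genes, with limma's SE as bars, n = 2 pools per genotype. Filled points passed an adjusted p of 0.05. All filled points lie to the right of 0, Tinagl1 lies furthest to the right at 2.19, and Timp1 lies furthest to the left at -0.46.

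The roles differed in how many of their genes rose. Among interstitial matrix genes 11 of 14 rose, with a median log2 change of 0.71. In the basement membrane group 5 of 8 rose, with a median of 0.76. Of the regulators, which are the matricellular proteins, proteases, inhibitors and growth factors, 4 of 10 rose, with a median of 0.38 and a range of -0.46 to 1.46. These medians describe lists of unequal size, and the difference between the groups was not tested.

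Other cell types moved in the same pools. The 14 tested markers of thymus and lymphocyte all fell, with a median log2 change of -3.25, from Cd79a (-0.59) to Cd8b1 (-5.16). Their summed signal was 14957 to 15310 in heterozygous pools and 134543 to 136961 in wild-type pools. In heterozygous pools Rag2 (172.1 and 98.9) and Ptcra (68.3 and 132) were as dim as genes left untested, so they entered the test through the wild-type pools. The arrays were scaled to a like total, so signals are relative to everything else on the same array. On the same scale 15 of 20 sarcomere markers of the cardiomyocyte rose and 0 fell, from Tpm1 (log2 change 0.20) to Ldb3 (1.88). Their median log2 change was 0.66, close to the 0.69 of the matrix genes. The summed signal of the sarcomere markers was 973062 to 1004265 in heterozygous pools and 604134 to 673662 in wild-type pools. In whole-heart RNA, fewer cells of a type and less RNA per cell cannot be told apart.

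Cells that make matrix were read through 3 marker lists. Of 9 fibroblast markers 8 rose, with a median log2 change of 0.90, from S100a4 (0.07) to Pdgfra (0.98), and with a summed signal of 71852 to 74024 in heterozygous pools and 38152 to 38924 in wild-type pools. Most of that sum came from Gsn alone, at 51840 and 50714 in heterozygous pools and 27015 and 25961 in wild-type pools. Endothelial markers rose in 8 of 11 cases, with a median of 0.91, from Icam2 (-0.38) to Nos3 (2.59), and a summed signal of 25736 to 27461 in heterozygous pools against 14324 to 14629 in wild-type pools. Nos3 read 181.2 and 140.4 in wild-type pools, as dim as genes left untested, so it entered the test through the heterozygous pools (1029 and 901.6). Smooth muscle and pericyte markers rose in 1 of 8 cases, with a median of 0.35. They ran from Rgs5 (-0.14) to Smtn (1.61), which did not pass (adjusted p = 0.0594). The summed signal of this list was 23265 to 27095 in heterozygous pools against 17898 to 18368 in wild-type pools. Fibroblast and endothelial medians were thus above the 0.69 of the matrix genes, and the part of these cells in the matrix result was not tested.

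Further lists covered other tissues and cell types. The 3 lung markers rose, with a median log2 change of 1.46, from Scgb1a1 (1.32) to Sftpc (2.25). Their summed signal was 47564 to 55803 in heterozygous pools, against 18903 to 21745 in wild-type pools. Most of that sum came from Scgb1a1 alone, at 52300 and 44849 in heterozygous pools and 21076 and 17939 in wild-type pools. Of 7 macrophage markers 1 fell (Cd68, log2 change -0.65) and 6 did not pass, among them the highest, Cd14 (0.47). The macrophage median was 0.05, with a summed signal of 22659 to 23268 in heterozygous pools against 23049 to 24805 in wild-type pools. The 4 mesothelial markers split, with a median of -0.56. Upk3b rose (log2 change 0.77), Krt8 (-1.72) and Krt18 (-2.76) fell, and Krt19 (0.59) did not pass. Of 4 adipocyte markers 0 passed (median 0.24), from Ucp1 (-0.25) to Fabp4 (0.45). Of 3 erythroid markers 1 rose (median 0.24), from Hba-a1 (0.23) to Alas2 (0.90). All tested markers of these lists had signals above 0, but dim probe sets were left untested, so this could not show a tissue to be absent. How much lung, thymus or other tissue contributed to the matrix signals was not tested.

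**Figure D2:**
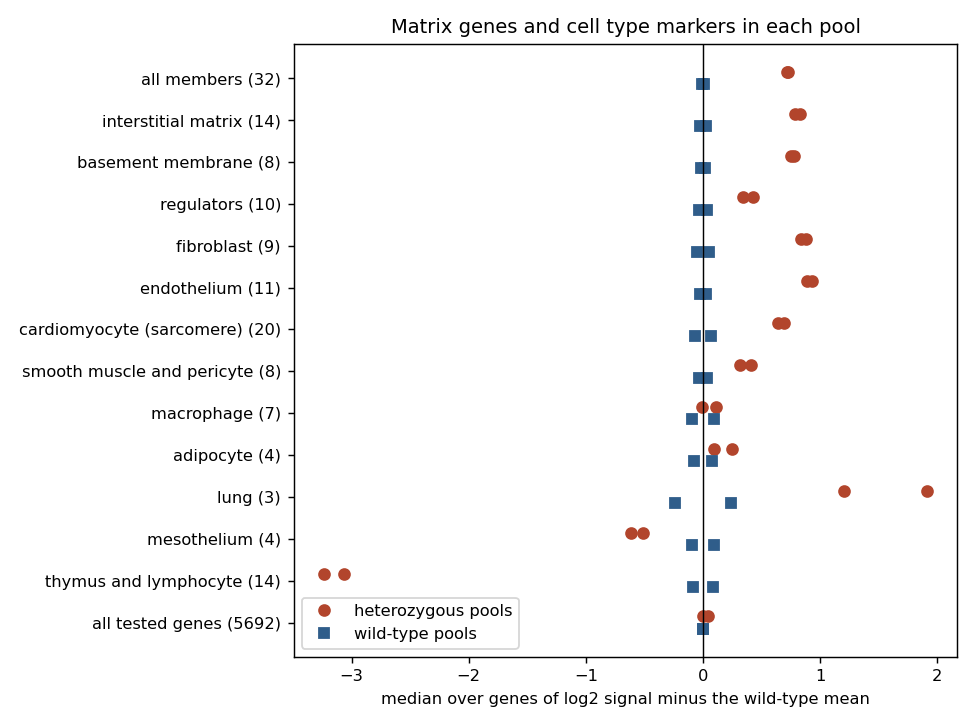
Median over the genes of a list of log2 signal minus the wild-type mean (x axis), for each pool, with the number of tested genes in brackets. Heterozygous pools are circles and wild-type pools squares. The matrix genes of the heterozygous pools both sit at 0.72, near the fibroblast, endothelial and sarcomere lists, while the thymus and lymphocyte list sits at -3.07 and -3.24.

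Type I collagen is the main load-bearing fibre of the heart, a trimer of the products of Col1a1 and Col1a2. Col1a1 had signals of 8072 and 7353 in heterozygous pools, against 3910 and 2949 in wild-type pools. It rose 2.27-fold (log2 change 1.18, SE 0.17, adjusted p = 0.00102). With no filter on dim probe sets it did not pass (adjusted p = 0.0560). Its second, dimmer probe set read 3194 and 3600 in heterozygous pools and 3555 and 3481 in wild-type pools, with a log2 change of -0.05 (adjusted p = 0.814) that did not pass, so the probe sets of this gene disagree.

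Col1a2 read 4006 and 6005 in heterozygous pools and 2577 and 3328 in wild-type pools, and rose 1.67-fold (log2 change 0.74, SE 0.22, adjusted p = 0.0262). Its other probe set read 4542 and 4286 in heterozygous pools against 2995 and 3039 in wild-type pools and rose as well (log2 change 0.55, adjusted p = 0.0176). Pools of the genotypes did not overlap on either probe set. The brighter probe set did not pass under eBayes without trend (adjusted p = 0.0731) or with no filter (0.213). The call of the brighter one ended without wild-type pool 1 (log2 change 0.56) or heterozygous pool 2 (0.45).

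Collagen III, which forms thinner fibres together with collagen I, showed a smaller difference. Col3a1 read 4589 and 4788 in heterozygous pools and 2748 and 3718 in wild-type pools, and rose 1.47-fold (log2 change 0.55, SE 0.18, adjusted p = 0.0376). Its adjusted p was the largest of the 20 that rose. The call ended without wild-type pool 1 (log2 change 0.33), heterozygous pool 1 (0.58) or heterozygous pool 2 (0.52). It also ended under cyclic loess (adjusted p = 0.0711), under eBayes without trend (0.0886), with no filter (0.175) and with its probe sets averaged (log2 change 0.27, adjusted p = 0.302). The dimmer probe sets of the gene had log2 changes of 0.04 and 0.21 that did not pass (adjusted p = 0.936 and 0.589).

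Collagen V sits in the core of collagen I fibres and sets their width. Col5a2 read 1785 and 1505 in heterozygous pools, against 1062 and 989.4 in wild-type pools, and rose 1.60-fold (log2 change 0.68, SE 0.19, adjusted p = 0.0195). This call ended without wild-type pool 2 (0.63) or heterozygous pool 1 (0.55). For Col5a1 the signals were 2084 and 2232 against 1453 and 1686 in wild-type pools, higher in both heterozygous pools, but its log2 change of 0.46 did not pass (adjusted p = 0.0608), as on its other probe set (0.42, adjusted p = 0.187). Col5a1 did pass with a common median (adjusted p = 0.0134), with quantile normalization (0.0276), with the lowest 60% left out (0.0490) and with the pool number as a block (0.0472).

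Collagen VI links cells to the fibres as beaded filaments. Col6a1 read 6639 and 5073 in heterozygous pools and 3579 and 3669 in wild-type pools, and rose 1.60-fold (log2 change 0.68, SE 0.17, adjusted p = 0.0128). Leaving out heterozygous pool 1 ended this call (0.49). The dimmer probe set of Col6a1 rose as well (log2 change 0.94, adjusted p = 0.0248). Col6a2 read 2837 and 2754 in heterozygous pools against 1572 and 1212 in wild-type pools, and rose 2.02-fold (log2 change 1.02, SE 0.18, adjusted p = 0.00283). With no filter neither gene passed (adjusted p = 0.108 for Col6a1 and 0.0598 for Col6a2). Both chains were higher in every heterozygous pool than in any wild-type pool.

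Col8a1, a network collagen of vessel walls, read 974.8 and 1203 in heterozygous pools and 620 and 475.6 in wild-type pools, and rose 1.99-fold (log2 change 1.00, SE 0.24, adjusted p = 0.0113). Its call ended without wild-type pool 2 (log2 change 0.80) or heterozygous pool 2 (0.84). Eln, of the elastic fibres, read 2439 and 2628 in heterozygous pools and 1358 and 1512 in wild-type pools, and rose 1.77-fold (log2 change 0.82, SE 0.17, adjusted p = 0.00506). Fn1, the adhesive glycoprotein fibronectin that is laid down early in repair, overlapped between the genotypes. It read 1580 and 1703 in heterozygous pools and 1586 and 1303 in wild-type pools (log2 change 0.19, SE 0.18, adjusted p = 0.449).

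The small leucine-rich proteoglycans coat collagen fibrils and control their assembly. Dcn (decorin) read 54660 and 57904 in heterozygous pools and 30259 and 30231 in wild-type pools, and rose 1.86-fold (log2 change 0.90, SE 0.12, adjusted p = 0.000723). Lum (lumican) read 7994 and 9236 in heterozygous pools against 5208 and 5528 in wild-type pools and rose 1.60-fold (log2 change 0.68, SE 0.15, adjusted p = 0.00651). Leaving out heterozygous pool 2 ended this call (0.58). Bgn (biglycan) was higher in both heterozygous pools, at 9210 and 8584 against 7286 and 5917 in wild-type pools, but its log2 change of 0.44 did not pass (adjusted p = 0.0510). It did pass without wild-type pool 1 (log2 change 0.59, adjusted p = 0.0246), with a common median (adjusted p = 0.0178), with the lowest 60% left out (0.0428), with robust eBayes (0.0468) and with the pool number as a block (0.0278). Its other probe set overlapped between the genotypes (log2 change 0.21).

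Mgp, of matrix Gla protein, which keeps arteries and cartilage from calcifying, read 12208 and 10197 in heterozygous pools and 5709 and 5202 in wild-type pools. It rose 2.05-fold (log2 change 1.03, SE 0.15, adjusted p = 0.00100). In the naming scheme of this array, the suffix of the Mgp probe set marks probes shared by more than 1 transcript, and those of Lamb1 and Lamc1 mark probes shared within a family.

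**Figure D3:**
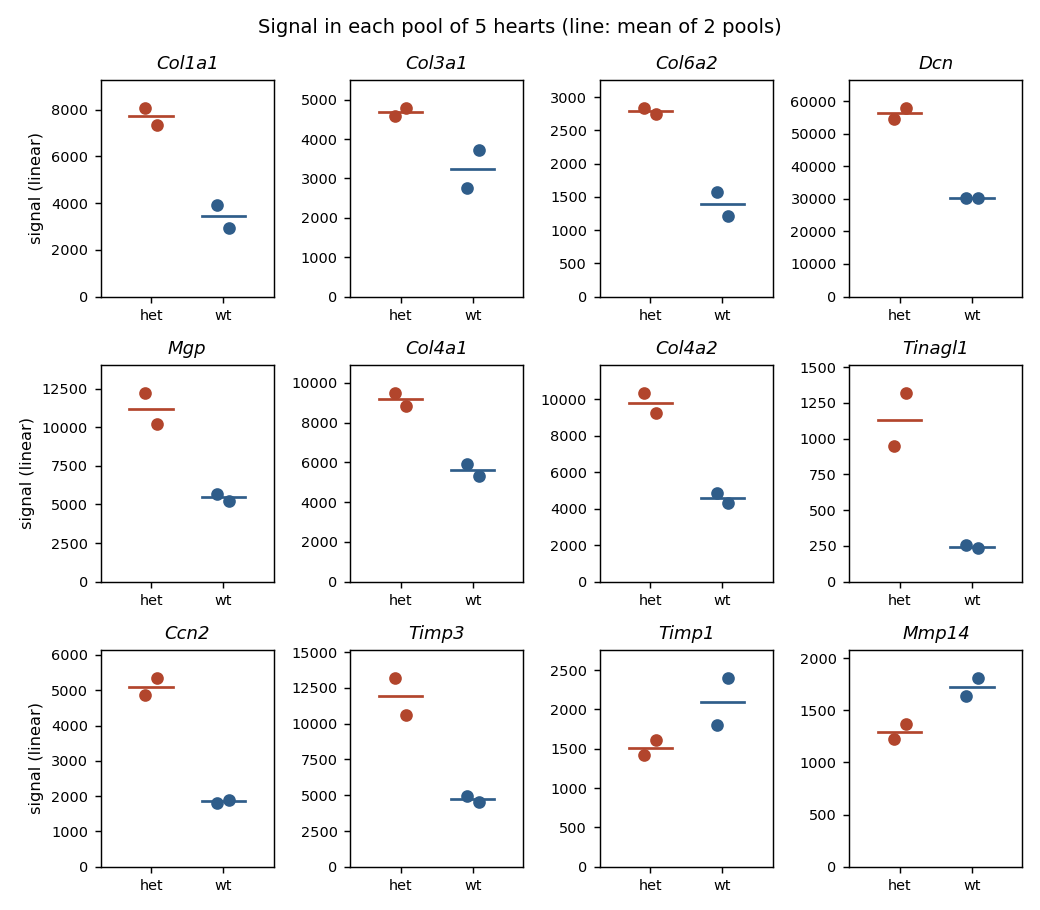
Linear signal (y axis, from 0) of 12 matrix genes in each pool of 5 hearts, heterozygous left and wild type right, with a line at the mean of 2 pools. The 12 were picked for display, and none of the 5 tested matrix genes that overlapped is among them. The pools do not overlap in any of the 12 panels, and heterozygous pools are higher in all except Timp1 and Mmp14. Over all tested genes, heterozygous pools lay above wild-type pools without overlap for 36.2% and below for 34.5%.

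In the basement membrane, collagen IV is a trimer built mainly from the chains of Col4a1 and Col4a2. These neighbouring genes are read in opposite directions from a shared start region, so their start regions are shown. Both are from RefSeq, build GRCm38.p6, and run from 250 bases before the annotated start to 50 bases after it. Capitals mark the 78 bases that both windows hold, on opposite strands.
Col4a1 (chr8:11312777-11313076, minus strand): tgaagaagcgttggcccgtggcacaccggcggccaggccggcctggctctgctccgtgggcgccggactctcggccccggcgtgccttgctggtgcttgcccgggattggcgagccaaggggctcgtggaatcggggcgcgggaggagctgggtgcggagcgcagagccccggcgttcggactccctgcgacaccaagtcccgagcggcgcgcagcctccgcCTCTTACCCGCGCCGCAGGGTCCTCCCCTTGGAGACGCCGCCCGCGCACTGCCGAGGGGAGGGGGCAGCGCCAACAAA
Col4a2 (chr8:11312555-11312854, plus strand): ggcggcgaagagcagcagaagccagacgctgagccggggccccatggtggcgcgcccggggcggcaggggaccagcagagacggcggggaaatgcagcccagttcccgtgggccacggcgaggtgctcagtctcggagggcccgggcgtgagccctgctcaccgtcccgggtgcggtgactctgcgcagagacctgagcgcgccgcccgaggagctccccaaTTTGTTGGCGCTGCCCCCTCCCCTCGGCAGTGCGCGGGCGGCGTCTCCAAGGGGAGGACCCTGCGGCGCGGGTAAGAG

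Both genes of this shared region rose. Col4a1 read 9487 and 8855 in heterozygous pools and 5937 and 5318 in wild-type pools, a 1.63-fold increase (log2 change 0.71, SE 0.14, adjusted p = 0.00480) whose call ended without heterozygous pool 1 (0.66). Col4a2 read 10326 and 9256 in heterozygous pools and 4834 and 4299 in wild-type pools, and rose 2.14-fold (log2 change 1.10, SE 0.15, adjusted p = 0.000647). Neither gene overlapped between the genotypes. The difference between the 2 changes was not tested.

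Collagens XV and XVIII lie at the outer face of basement membranes. Col15a1 read 2591 and 3182 in heterozygous pools and 936.6 and 1763 in wild-type pools, and rose 2.23-fold (log2 change 1.16, SE 0.28, adjusted p = 0.0111). The wild-type pools lay far apart, and the call ended without heterozygous pool 1 (log2 change 1.31) or heterozygous pool 2 (1.01). Col18a1 overlapped between the genotypes on its tested probe set (log2 change 0.22, adjusted p = 0.462). It read 1124 and 1483 in heterozygous pools and 995.7 and 1237 in wild-type pools. Its other probe sets were too dim to be tested and did not agree in direction.

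Laminins are the cross-shaped trimers that nucleate the basement membrane, and the alpha 4 chain is typical of vessels. Lama4 read 3088 and 3203 in heterozygous pools and 1861 and 1708 in wild-type pools, and rose 1.76-fold (log2 change 0.82, SE 0.16, adjusted p = 0.00396). Its usual partners did not pass. Lamb1 read 1706 and 1814 in heterozygous pools against 1381 and 1580 in wild-type pools (log2 change 0.25, adjusted p = 0.284). Lamc1 read 1805 and 1318 in heterozygous pools, inside the span of its wild-type pools at 767.1 and 1836 (log2 change 0.38, adjusted p = 0.448). Its value was -0.25 without wild-type pool 1, and 1.01 and past the threshold without wild-type pool 2.

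Tinagl1 had the largest log2 change of the 32. It encodes a secreted protein of basement membranes that resembles cathepsin B. Signals were 945.9 and 1318 in heterozygous pools and 257.3 and 233.4 in wild-type pools, without overlap, a 4.56-fold increase (log2 change 2.19, SE 0.29, adjusted p = 0.000589). Its wild-type signals alone were as dim as those of genes left untested, so it entered the test through the heterozygous pools, and a filter that removed the lowest 60% left it untested. With no filter on brightness it passed too (adjusted p = 0.0404). The increase passed in each of the 18 other ways of analysis in which Tinagl1 was tested, with log2 changes of 1.54 to 2.43.

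Among the regulators, matricellular proteins steer cells without bearing load. Ccn2, the connective tissue growth factor that is induced by mechanical stretch and by transforming growth factor beta, read 4872 and 5338 in heterozygous pools and 1821 and 1879 in wild-type pools. It rose 2.76-fold (log2 change 1.46, SE 0.15, adjusted p = 0.000179). Sparc, a collagen-binding protein needed for collagen maturation, read 9022 and 8106 in heterozygous pools against 3607 and 4654 in wild-type pools. It rose 2.09-fold (log2 change 1.06, SE 0.17, adjusted p = 0.00146), but did not pass with no filter (adjusted p = 0.0591). Postn (periostin), a marker of activated fibroblasts, was level, with 2082 and 2017 in heterozygous pools and 2057 and 2062 in wild-type pools (log2 change -0.01, SE 0.16, adjusted p = 0.976).

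The TIMPs differed from each other in the sign of their values. Timp3, the inhibitor that stays bound to the matrix, read 13176 and 10637 in heterozygous pools and 4973 and 4519 in wild-type pools, and rose 2.50-fold (log2 change 1.32, SE 0.16, adjusted p = 0.000340). Timp1, a soluble inhibitor raised in many forms of injury, lay lower in both heterozygous pools, at 1415 and 1611 against 1799 and 2395 in wild-type pools, but did not pass (log2 change -0.46, SE 0.20, adjusted p = 0.0946). Timp2 read 912.7 and 995.3 against 841.7 and 654.2 in wild-type pools, higher in both heterozygous pools, and did not pass either (log2 change 0.36, adjusted p = 0.231).

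Start regions are shown for Timp3, which rose, and for Timp1, which did not pass. The difference between their changes was not tested. They come from the same RefSeq table and span the same distances. Capitals mark matches, on either strand, to 6 short motifs. Searched were the TATA box in the form TATAAA, the CCAAT box, the GC box in the form GGGCGG, the AP-1 motif written TGANTCA, the SMAD box spelled as CAGACA, and the TEAD motif read as GGAATG.
Timp3 (chr10:86300162-86300461, plus strand): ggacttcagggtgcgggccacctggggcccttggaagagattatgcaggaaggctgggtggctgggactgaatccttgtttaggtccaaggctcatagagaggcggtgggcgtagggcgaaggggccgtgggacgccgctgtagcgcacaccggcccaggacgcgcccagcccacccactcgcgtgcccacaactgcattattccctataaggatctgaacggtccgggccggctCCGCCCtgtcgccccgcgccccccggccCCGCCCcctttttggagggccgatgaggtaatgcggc
Timp1 (chrX:20869916-20870215, plus strand): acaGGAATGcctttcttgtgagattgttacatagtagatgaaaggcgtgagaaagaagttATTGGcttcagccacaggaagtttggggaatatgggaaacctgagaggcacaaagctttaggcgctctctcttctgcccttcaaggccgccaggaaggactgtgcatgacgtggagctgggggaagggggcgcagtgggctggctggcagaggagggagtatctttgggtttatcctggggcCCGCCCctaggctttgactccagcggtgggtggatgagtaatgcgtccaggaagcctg

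The Timp3 window held 2 GC boxes and no other of the 6 motifs, and was 67.0% G and C. In the Timp1 window, 55.0% G and C, there were 1 GC box, 1 CCAAT match and 1 GGAATG match, and these matches did not overlap. Over the 21 tested matrix genes with a start region in the table, a GC box was present for 15 (71.4%), against 38.2% of all 27025 genes in it. CCAAT was present for 9 (42.9% against 41.1%), CAGACA for 7 (33.3% against 23.6%), GGAATG for 5 (23.8% against 16.6%), TATAAA for 2 (9.52% against 15.7%) and TGANTCA for 2 (9.52% against 8.97%). Of the 11 with a start region that rose, 7 held a GC box. These are letter matches in a fixed window, and they were not tested. The 27025 genes were not filtered by presence on the array or by brightness, as the 21 were, so the shares come from unlike sets.

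Of the 5 protease genes in the list, Mmp2, Mmp3 and Mmp9 were too dim to be tested. Mmp14 is the membrane-anchored enzyme that cuts collagen and activates Mmp2. Its signals were lower in both heterozygous pools, at 1221 and 1371 against 1642 and 1807 in wild-type pools, but the log2 change of -0.41 (SE 0.18, adjusted p = 0.0959) did not pass. Ctsk, a cysteine protease that degrades collagen, read 701 and 717.1 against 469.3 and 608.8 in wild-type pools and did not pass (log2 change 0.41, adjusted p = 0.236).

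Of the transforming growth factor beta ligands, which drive matrix synthesis in fibroblasts, Tgfb3 read 1220 and 1655 in heterozygous pools and 729.8 and 783 in wild-type pools. It rose 1.88-fold (log2 change 0.91, SE 0.22, adjusted p = 0.0103). Leaving out heterozygous pool 2 ended this call (0.69). Tgfb1, the isoform most tied to fibrosis, overlapped between the genotypes, with 1051 and 1008 in heterozygous pools against 1280 and 990.7 in wild-type pools (log2 change -0.13, adjusted p = 0.656). Its value turned to 0.056 without wild-type pool 1, to 0.050 with a common median and to 0.027 with quantile normalization.

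Of the genes with a probe set, 7 were too dim to be tested: Mmp2, Mmp3, Mmp9, Lox, Loxl1, Nid1 and Tgfb2. On their brightest probe sets, Mmp9, a gelatinase of leukocytes, read 50 and 109.5 in heterozygous pools and 257.9 and 336.1 in wild-type pools. It was the only gene of the list called lower in any analysis on the deposited scale at the 0.05 threshold (log2 change -1.99, adjusted p = 0.0398 when the filter removed the lowest 20% of probe sets). Its heterozygous signals were on average as dim as those of probe sets left untested there, so it entered that analysis through the wild-type pools. Without any filter it did not pass (adjusted p = 0.123). In that analysis 9 matrix genes rose and 0 fell, where 4.79% of all genes rose and 6.25% fell. The 9 were Ccn2, Col4a1, Col4a2, Dcn, Eln, Lama4, Mgp, Timp3 and Tinagl1. The calls of Col1a1, Col1a2, Col3a1, Col5a2, Col6a1, Col6a2, Col8a1, Col15a1, Lum, Sparc and Tgfb3 ended there. Loxl1, a collagen and elastin cross-linking enzyme, read 347.5 and 538 in heterozygous pools and 191 and 310.3 in wild-type pools, without overlap, and did not pass when included (log2 change 0.83, adjusted p = 0.333 with no filter). Tgfb2 read 314.9 and 295.9 in heterozygous pools against 196.8 and 260.4 in wild-type pools (log2 change 0.43, adjusted p = 0.431 with no filter). Mmp2, Mmp3, Lox and Nid1 overlapped between the genotypes.

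Because signals are relative to the array total, the matrix genes were also set against the contractile genes. With every array centred on the mean of the sarcomere list, the median log2 change of all tested genes moved to -0.62, in place of 0.02, and that of the 32 matrix genes to 0.049, in place of 0.69. On this scale 6 of the 32 were higher, 4 were lower and 22 did not pass, where 3.11% of all tested genes were higher and 53.2% lower. The 6 were Tinagl1 (log2 change 1.54, adjusted p = 0.00203), Ccn2 (0.82, adjusted p = 0.00232), Timp3 (0.68, adjusted p = 0.00581), Col1a1 (0.54, adjusted p = 0.0228), Col4a2 (0.46, adjusted p = 0.0239) and Mgp (0.39, adjusted p = 0.0497). The 4 lower genes were Timp1 (-1.10, adjusted p = 0.00217), Mmp14 (-1.06, adjusted p = 0.00143), Tgfb1 (-0.77, adjusted p = 0.0111) and Postn (-0.65, adjusted p = 0.00905). Dcn (0.25, adjusted p = 0.0759) and Sparc (0.42, adjusted p = 0.0718) did not pass there, and Col3a1 turned to -0.091.

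**Figure D4:**
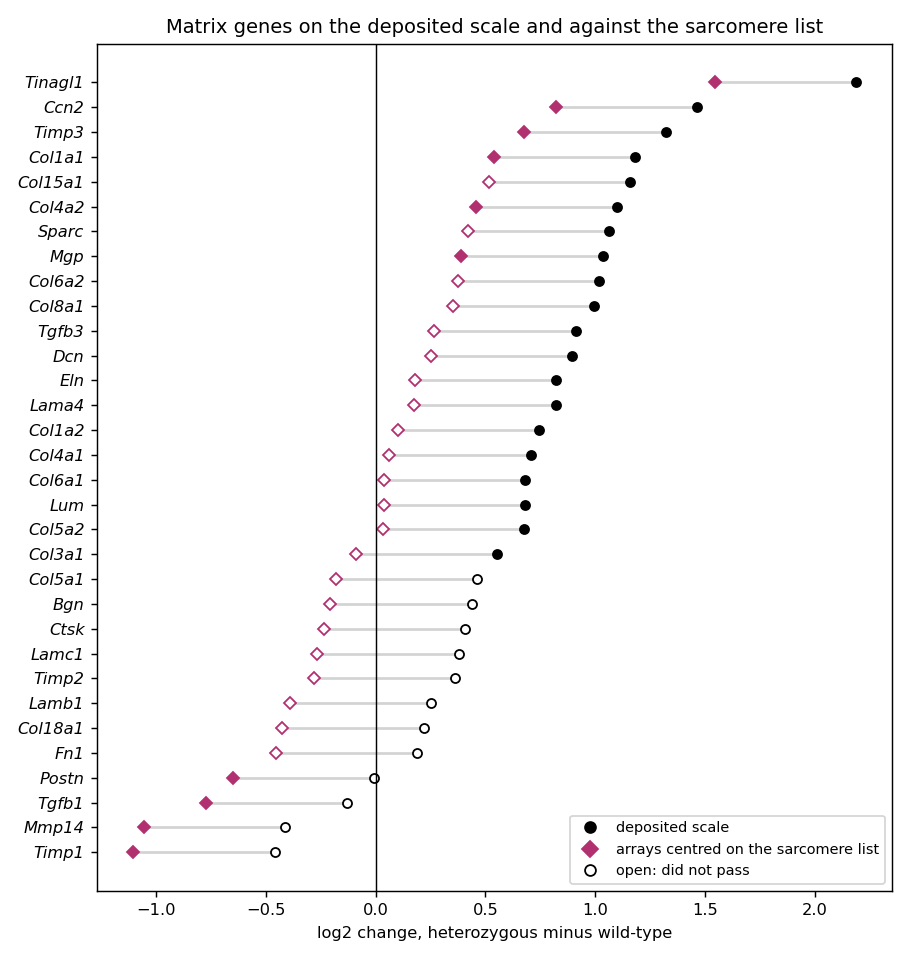
Log2 change (heterozygous minus wild type, x axis) of the 32 tested matrix genes on the deposited scale (circles) and with arrays centred on the sarcomere list (diamonds), filled where the adjusted p was under 0.05. The centring moves every gene to the left alike, and leaves 6 filled diamonds to the right of 0 and 4 to the left.

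Further genes of the matrix, 135 listed and 63 tested, gave a similar picture with more decreases. Of the 63, 26 rose (41.3%), 8 fell (12.7%) and 29 did not pass, against 19.5% rising and 19.5% falling over all tested genes, with a median log2 change of 0.51. In the list of collagens 2 of 7 rose, Col4a5 (2.25-fold) and Col6a3 (1.67-fold), and 0 fell. Col4a5 read 722.3 and 664.5 in heterozygous pools and 231.7 and 408.4 in wild-type pools. Its wild-type signals were on average as dim as those of genes left untested, so it entered the test through the heterozygous pools. Basement membrane genes rose in 4 of 8 cases and 0 fell, with Lama5 at 2.17-fold, Smoc2 at 1.84-fold, Lama2 at 1.66-fold and Sparcl1 at 1.58-fold. Of 4 further proteoglycan genes Dpt (1.92-fold, also in the fibroblast list) and Ogn (1.87-fold) rose. Leaving out heterozygous pool 1 reduced the 26 to 14. Leaving out heterozygous pool 2 gave 16 that rose and 4 that fell.

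Glycoproteins and elastic fibre proteins rose in 5 of 14 cases and fell in 2. Ltbp4, which stores latent transforming growth factor beta on elastic fibres, read 13951 and 13548 in heterozygous pools and 4205 and 5242 in wild-type pools, and rose 2.93-fold (log2 change 1.55, SE 0.15, adjusted p = 0.000135). Tnxb (tenascin X) rose 2.65-fold, Fbln2 1.86-fold and Fbln1 1.69-fold. The 2 that fell, named after their values were seen, were Tnc (tenascin C, log2 change -1.62), an early matrix protein of injured heart, and Tgfbi (-0.79). Tnc read 269.6 and 176.8 in heterozygous pools and 698.6 and 647.8 in wild-type pools. Its heterozygous signals alone were as dim as those of genes left untested, so it entered the test through the wild-type pools.

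Genes that fold and process collagen rose in 4 of 10 cases and fell in 1. Serpinh1, the chaperone of procollagen, read 9420 and 9208 in heterozygous pools and 3380 and 4534 in wild-type pools, and rose 2.38-fold (log2 change 1.25, SE 0.17, adjusted p = 0.000731). The prolyl 4-hydroxylase alpha subunits P4ha2 (2.14-fold) and P4ha1 (1.89-fold) rose as well, as did Crtap (1.95-fold), which belongs to the prolyl 3-hydroxylase complex. Ppib, a prolyl isomerase of the same complex that was named after its value was seen, fell (log2 change -0.53, adjusted p = 0.0386).

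Among other matrix proteases 4 of 9 rose and 3 fell. Of the lysosomal cathepsin genes in this list, Ctsl (log2 change -1.40) and Ctss (-1.12) fell, while Ctsb, named after its value was seen, rose (0.52). Plat, the tissue plasminogen activator (1.70-fold), and Adam15 (1.84-fold) rose as well. Ctss is known from antigen-presenting cells and Ctsl from thymic epithelium as well as heart. The thymus and lymphocyte markers fell by 3.25 on the log2 scale in the median in the same pools, and their part in these decreases was not tested. In the list of transforming growth factor beta receptors and Smads 5 of 11 rose and 2 fell. The endothelial receptors Acvrl1 (1.79-fold) and Eng (1.72-fold) and the inhibitory Smad6 (1.85-fold) rose, while Tgif1, a repressor of Smad targets, fell (log2 change -1.03).

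Several matrix genes that moved alike are neighbours on a chromosome. With no other protein-coding gene between them in GRCm38.p6, Col4a1 and Col4a2 lie on chromosome 8, Col3a1 and Col5a2 on chromosome 1, and Col6a1 and Col6a2 as well as Dcn and Lum on chromosome 10. All 8 of these genes rose on the deposited scale, where 62.5% of the 32 tested matrix genes and 19.5% of all tested genes rose. Col18a1, with 2 genes between it and Col6a1, did not pass (log2 change 0.22). Of the 32 tested matrix genes 8 (25%) lie on chromosome 10, against 4.57% of all tested genes. This describes the makeup of the list, and a link between position and change was not tested.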

How the data were processed

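Whole-heart total RNA was measured on 4 one-colour arrays of 12488 probe sets. The deposited values are linear signal intensities per probe set, with no log taken; for the software behind them no name is given in the sources used here. The authors' intensities had nearly equal trimmed means on every array (highest over lowest 1.01, with 2% removed at each end), so they were used as deposited. The gene in which the animals were heterozygous is not reported here. The 66 control probe sets, empty in heterozygous pool 2, were removed from all arrays.

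A floor at the 10th percentile of the signals (36.25) was set, which touched 0 values of the 32 matrix genes, and log2 was taken. The 40% of probe sets with the lowest mean were not tested, leaving 7454, of which 2856 (38.3%) were called. The model was limma's lmFit and eBayes, with trend (version 3.58.1, R 4.3.3). Genotype was the sole term, and Benjamini-Hochberg adjustment was applied to two-sided p-values over all tested probe sets. The fit was tested on simulated data. Probe sets with 1 symbol (10855) were named through the platform annotation, and a gene was represented by its tested probe set of highest mean signal. Every member of the list is named, with up to 4 called genes of smallest p per further list and the extremes of marker lists. Any other gene of these lists was named after its value was seen. The members, lists and tests were chosen with earlier results of these data known. Errors of changes are limma's SE. Precision is limited by having 4 arrays. The alternatives were other scalings, floors, filters, moderation, gene summaries, thresholds, the pool number as a block and each pool left out.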

Additional observations from a re-analysis of the deposited data

How the results depend on the processing

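The count of 20 matrix genes called higher was 18 to 22 under other scalings, floors, moderation and gene summaries, except with arrays centred on the sarcomere list (6 higher, 4 lower), with no filter on dim probe sets (9 higher, 0 lower, where 4.79% of all genes were higher) and at a threshold of 0.01 (13). It was 14 to 19 with a pool left out. One gene was lower with the lowest 20% left out, and 2 were at a threshold of 0.1. Calls over all probe sets numbered 1206 with no filter, 1658 at a threshold of 0.01 and 1705 to 2284 with a pool left out. Higher calls were 46.8% of all calls, 62.5% with a common median (where the median of all genes was 0.20), 36.9% without heterozygous pool 1 or 2, and 4.85% with sarcomere centring.

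With a common median, median log2 changes were 0.87 for all tested matrix genes, 0.89 for interstitial, 0.94 for basement membrane and 0.56 for regulator genes. In the same order they were 0.57, 0.62, 0.68 and 0.49 under cyclic loess, and 0.049, 0.069, 0.12 and -0.26 with sarcomere centring. Quantile normalization gave 0.55 for regulators. With no filter or the lowest 20% left out the median was 0.68 for all tested matrix genes and 0.71 for basement membrane genes. With the lowest 60% left out it was 0.71 for basement membrane genes and 0.45 for regulators. With all probe sets of a gene averaged it was 0.68 for all tested matrix genes. With pools left out, the medians ran from 0.68 to 0.76 for all tested matrix genes and 0.69 to 0.83 for interstitial genes. They ran from 0.74 to 0.88 for basement membrane and 0.34 to 0.42 for regulator genes. The causes were not tested, apart from the centring itself.

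Values that changed sign with sarcomere centring were those of Ctsk (-0.24), Lamc1 (-0.27), Lamb1 (-0.39), Fn1 (-0.45), Col5a1 (-0.18), Timp2 (-0.28), Bgn (-0.21), Col3a1 (-0.091) and Col18a1 (-0.42). Postn and Tgfb1 turned to 0.17 and 0.050 with a common median and to 0.10 and 0.027 under quantile normalization. With pools left out, Tgfb1 ran from -0.31 to 0.056 and Lamc1 from -0.25 to 1.01, both turning without wild-type pool 1, and Postn ran from -0.030 to 0.015, turning without heterozygous pool 2.

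Further matrix genes called lower numbered 5 with a common median. Sarcomere centring gave 4 higher and 14 lower of 63, where 3.11% of all tested genes were higher and 53.2% lower. No filter gave 10 higher and 4 lower of 108, where 4.79% of all genes were higher and 6.25% lower. A threshold of 0.01 gave 17 higher and 5 lower of 63. At that threshold 691 of all 7454 tested probe sets were higher and 967 lower. With pools left out 14 to 26 were higher and 4 to 7 lower.

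The labels give both genotypes pools 1 and 2, and nothing says that a number marks a shared batch. Deviations of same-numbered pools correlated at 0.16 across probe sets. With the pool number as a block, 22 matrix genes were higher (Bgn and Col5a1 added) and 0 lower, and 3035 probe sets were called. Averaging the probe sets of a gene gives no count of probe sets, so that value has none.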
